A study of Drosophila melanogaster with 4 samples.

Results

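The chaperonin CCT, also called TRiC, folds newly made proteins in the cytosol, and the mRNAs of its 8 subunit genes are described here in polysome-seq libraries of Drosophila melanogaster ovaries enriched for germline cysts. The members were taken by FlyBase gene name, CCT1 to CCT8, which picked 8 of 17699 gene identifiers. All 8 had counts in every library and all 8 passed the filter on low counts, among 9038 genes tested. The chaperonin is a cage of stacked rings in which each ring holds a copy of every subunit, and it closes over an unfolded protein in a cycle driven by ATP. Its best known substrates are actin and tubulin, the proteins of the cytoskeleton that shapes dividing cysts, spindles and ring canals, and proteins with WD40 repeats such as the Cdc20 activator of the anaphase-promoting complex. In yeast the subunits CCT1, CCT2, CCT4 and CCT5 sit side by side in the ring and bind ATP tightly, whereas CCT3, CCT6, CCT7 and CCT8 form the side of the ring with weaker binding.

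The groups were the polysome fraction (libraries polysome 1 and polysome 3) and the input lysate (libraries input 1 and input 3). All 4 libraries came from ovaries of 1 genotype. It combined UAS-Dicer2 and the germline driver NosGAL4 with bam RNAi, a hairpin against the differentiation factor bam, and with hs-bam, a heat shock transgene that gives bam back. Flies had paired heat shocks of 2 h at 37°C, separated by 4 h at room temperature, on each of 2 days, and ovaries were dissected 3 to 5 days after eclosion. Somatic cells stay in such ovaries, and no library without heat shock was analysed here, so levels of chaperone mRNAs are those of heat-shocked flies throughout. The comparison of polysome with input gives the enrichment of an mRNA in the polysome fraction relative to other mRNAs. It does not give the share of an mRNA engaged with several ribosomes, since each library is scaled to its own total. The libraries of each fraction may be technical repeats, since nothing in the labels says that they came from separate flies. Polysome RNA was extracted by phenol-chloroform and input RNA by TRIzol, so fraction and extraction cannot be told apart.

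Levels are given as CPM, counts relative to the library total after TMM scaling, or as TPM, which also divides by gene length. Gene counts totalled 19452659 and 22647905 in polysome 1 and 3, against 10646651 and 12298615 in input 1 and 3. Polysome 3 was the least similar library: across genes, which are not independent replicates, its log2 CPM correlated at 0.76 to 0.78 with the rest, while the rest correlated at 0.81 to 0.85 among themselves. The summed level of 14 eggshell and yolk markers was 8901 and 15231 CPM in polysome 1 and 3, against 5667 and 5313 CPM in input 1 and 3, and all 14 were above 0 in every library. The markers did not move together: Cp15 was at 0.71 and 2617 CPM in polysome 1 and 3. Yp1, Yp2, Yp3 and Vm26Ab were lower in polysome 3 than in polysome 1. The summed level of 10 muscle sheath markers was 16020 and 6342 CPM in the polysomes, against 17270 and 24198 CPM in the inputs. The 6 germline markers analysed summed to 620 and 1502 CPM in the polysomes, against 757 and 844 CPM in the inputs, with vas, aub, piwi, osk, otu and bam above 0 in every library. Much of the sum in polysome 3 was osk (3.88 and 396 CPM in polysome 1 and 3) and otu (54.3 and 361 CPM). In contrast, bam was lower there (77.6 and 34.5 CPM), and reads of bam can also come from the transgene. Hemocyte markers (5 genes) summed to 1799 and 963 CPM, against 1987 and 2723 CPM, somatic germarium markers (6 genes, 1 of them at 0 in every library but polysome 1) to 768 and 735 CPM, against 910 and 1400 CPM, and fat body markers (5 genes, up to 2 at 0) to 114 and 143 CPM, against 80.5 and 136 CPM. The part of these cell types in the values of the CCT mRNAs was not tested, and fewer cells of a type cannot be told apart from less RNA per cell in bulk ovaries.

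The CCT mRNAs were abundant, lay close to each other in level and none was called different between polysomes and input. By TPM their sum was 4295 and 3513 TPM in polysome 1 and 3, against 3295 and 3259 TPM in input 1 and 3. Each subunit lay between the 96.2 and 97.9 percentile of tested genes by TPM in the polysomes and between the 95.8 and 97.9 percentile in the inputs. The 8 genes took 0.494% and 0.422% of gene counts in polysome 1 and 3, against 0.421% and 0.372% in input 1 and 3. A subunit had 3934 to 21114 counts in a library, so that counting error alone was 0.688% to 1.59% of a value.

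The genes lie apart from each other in the dm6 genome and are of similar size. CCT1 is on chromosome 3R from 22489105 to 22491439, CCT3 on 3R from 16647605 to 16649978 and CCT7 on 3R from 8801564 to 8806234. CCT2 is on X from 9089513 to 9092826 and CCT6 on X from 15746648 to 15748971. CCT4 is on 2L from 12690336 to 12692934, CCT5 on 2R from 12174802 to 12177516 and CCT8 on 2R from 8904844 to 8906990. Their coding sequences ran from 1599 to 1671 bases (533 codons in CCT4 and CCT6, 557 codons in CCT1, stop codon left out), and their summed exons from 1904 bases in CCT8 to 2165 bases in CCT3. An intron of CCT2 holds the microRNA gene mir-13b-2 on the same strand, which had 0 counts in these poly(A) libraries. CCT5 overlaps the nuclease gene EndoG on the other strand by 87 exon bases at its 3′ end, and the transcript of CCT7 meets that of CG9839, which lies within the CCT7 gene on the other strand, over 10 exon bases.

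Among the subunits that bind ATP tightly in yeast, none passed the test between fractions. CCT1 was at 525 and 399 CPM in polysome 1 and 3, against 495 and 449 CPM in input 1 and 3, so that the fractions overlapped and the polysome libraries differed more than the inputs did. CCT2, the most abundant subunit, was at 886 and 869 CPM in the polysomes, against 954 and 987 CPM in the inputs. Both polysome libraries lay below both inputs for CCT2, as for 18.1% of all genes tested, with a log2 fold change of -0.15 ± 0.38 (SE). CCT4 was at 584 and 516 CPM in the polysomes, against 640 and 558 CPM in the inputs, an overlap in which polysome 1 stood above input 3. CCT5 was at 491 and 453 CPM in the polysomes, against 459 and 481 CPM in the inputs, the smallest range of the 8, with a log2 fold change of 0.0047 ± 0.38. The log2 fold changes of CCT1 and CCT4 were -0.03 ± 0.40 and -0.12 ± 0.39.

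Among the subunits of weaker ATP binding in yeast, CCT7 and CCT8 had both polysome libraries above both inputs and CCT3 and CCT6 did not. Over all genes tested 17.2% had both polysomes above both inputs, and a difference between the classes of subunits was not tested. CCT8 was at 532 and 463 CPM in polysome 1 and 3, against 439 and 375 CPM in input 1 and 3, with the highest log2 fold change of the 8, 0.29 ± 0.39. CCT7 was at 413 and 418 CPM in the polysomes, against 382 and 374 CPM in the inputs, a small gap (0.14 ± 0.38) between pairs of close values. CCT3 was at 523 and 464 CPM in the polysomes, against 484 and 619 CPM in the inputs, so that input 3 was its high library. Its fold change of -0.16 ± 0.39 moved to 0.03 without input 3, where the median of all genes was 0.09. CCT6 varied most, at 590 and 352 CPM in the polysomes, against 501 and 365 CPM in the inputs. It was higher in the library numbered 1 than in the library numbered 3 in each fraction, and its log2 fold change was 0.12 ± 0.44 with all libraries, 0.43 without polysome 3 and -0.25 without polysome 1.

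**Figure D1:**
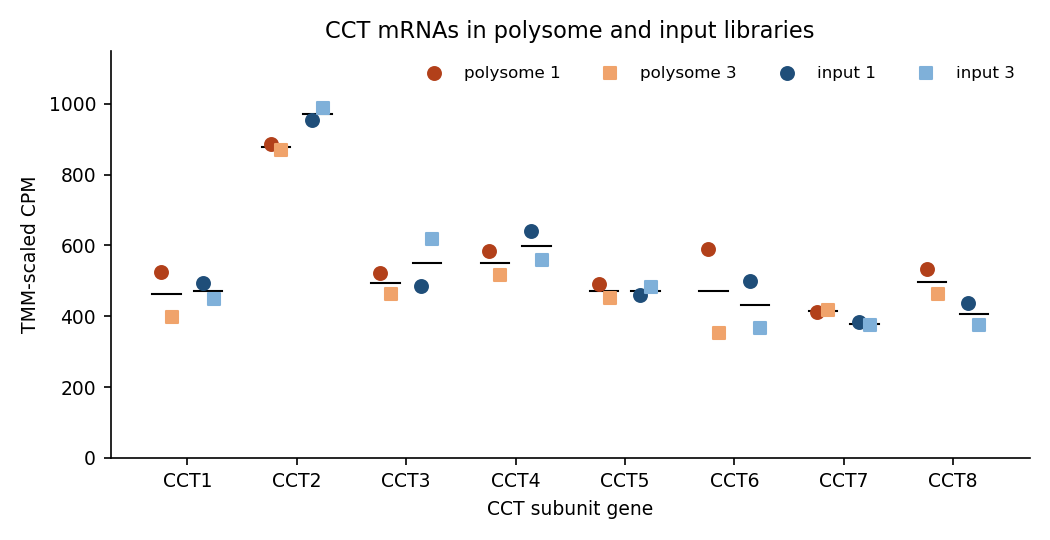
TMM-scaled CPM of each CCT mRNA (y axis, from 0) in the 4 libraries: polysome 1 and 3 on the left of each gene, input 1 and 3 on the right, with a bar at the mean of each fraction. CCT2 lies at 869 to 987 CPM in all 4 libraries, above every other subunit, and CCT6 shows the widest spread, from 352 to 590 CPM.

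No CCT subunit was called between polysome and input in the edgeR quasi-likelihood test. Called were 0 of 8, against 0% of all genes tested at an adjusted p under 0.05, and 0 of 8 had an unadjusted p under 0.05, against 4.68% of all genes. The smallest unadjusted p of the 8 was 0.477, for CCT8 (edgeR, adjusted p = 0.9998, the same for all 8 subunits). Both polysome libraries lay above both inputs for 2 of 8 subunits (17.2% of all genes) and below them for 1 of 8 (18.1% of all genes). Of the 8 log2 fold changes 4 were positive and 4 negative, with a median of -0.01, beside -0.003 over all genes tested. None of the 8 was called by DESeq2, which called 0.454% of all genes, with the replicate number as a block (0.52%), or without polysome 1 (7.24% of 9603 genes).

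The fit leaves room for differences that it could not call. The 95% interval of the log2 fold change ran from -1.02 to 0.73 for CCT2, from -0.88 to 0.89 for CCT5 and from -0.61 to 1.19 for CCT8, so changes within these bounds could not be told from none. The ratios within a replicate number lay well inside these intervals. Within replicate 1 the log2 ratio of polysome 1 to input 1 ran from -0.13 in CCT4 to 0.28 in CCT8, with an SD of 0.14 over the 8 subunits, beside an SD of 1.14 over all genes tested. Within replicate 3 the log2 ratio of polysome 3 to input 3 ran from -0.42 in CCT3 to 0.30 in CCT8, with an SD of 0.22 over the 8, beside 1.47 over all genes. All genes tested had a median of 33.1 to 38.7 CPM per library, so the SDs over all genes include many mRNAs far below CCT levels. An SD over genes of matched level is not given here. The ratio was above 0 for 6 subunits in replicate 1 and for 2 in replicate 3, and CCT7 and CCT8 were above 0 in both. These counts are to be read against all genes. The median ratio over the 8 was 0.10 in replicate 1 and -0.10 in replicate 3, beside 0.017 and -0.097 over all genes tested. In replicate 3 the 8 subunits thus stood near the median of all genes.

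**Figure D2:**
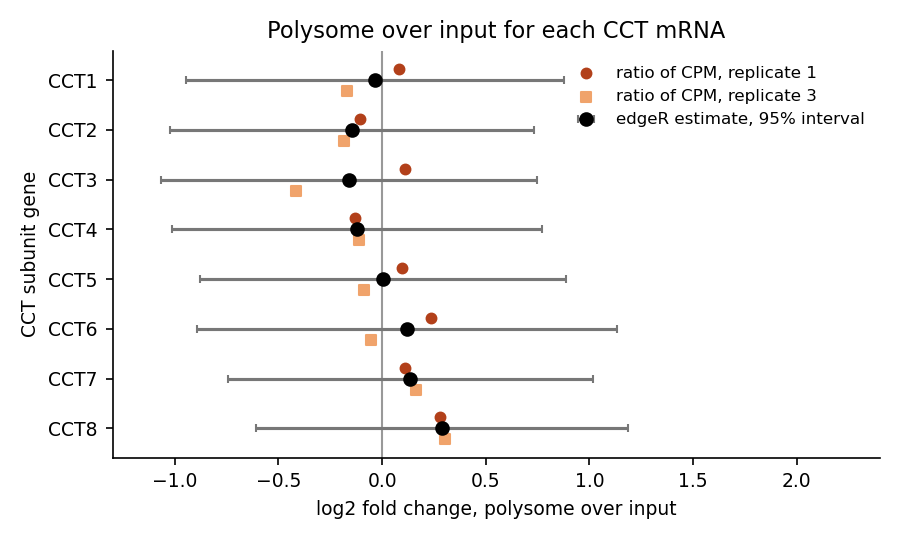
Log2 fold change of polysome over input (x axis) for each CCT mRNA: black points are edgeR estimates with 95% intervals, coloured points the ratio of CPM within replicate 1 (circles) and replicate 3 (squares). Every interval crosses 0, and the ratios lie between -0.42 and 0.30.

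The direction for CCT1 to CCT4 depended on the scaling. With total counts in place of TMM factors, the median of all genes moved to 0.22 and that of the 8 subunits to 0.21, and all 8 fold changes turned positive, from 0.07 in CCT3 to 0.51 in CCT8. Relative to the median of all genes the 8 subunits thus stood where TMM had put them. Translational efficiency was computed from TPM with 1 added, as the log2 ratio of a polysome library to the input of the same number, and was likewise read against its median over all genes. Its median over the 8 was 0.42 in replicate 1 and 0.10 in replicate 3, beside medians over all genes tested of 0.32 and 0.086. Averaged over the replicates, efficiency was 0.55 ± 0.05 for CCT8 (SE, n = 2), 0.39 ± 0.03 for CCT7 and 0.35 ± 0.20 for CCT6, at percentiles 70.3, 61.6 and 58.9 of tested genes. It was 0.26 ± 0.15 for CCT5, 0.21 ± 0.19 for CCT1, 0.14 ± 0.05 for CCT4, 0.11 ± 0.10 for CCT2 and 0.11 ± 0.32 for CCT3, between percentiles 43.7 and 53.5. These SEs pair libraries by number, which the edgeR fit did not do, so a small SE here does not make a value precise. The fit's own SE was 0.39 for CCT8 and 0.38 for CCT7.

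Each subunit occurs in equal number in the ring, and the mRNA levels per length came within a factor of 2.5 of each other in every library. The TPM of the highest subunit over the lowest was 1.99 and 2.24 in polysome 1 and 3, against 2.31 and 2.45 in input 1 and 3. The coefficient of variation of TPM over the 8 was 22.2% and 29.1% in the polysomes, against 30.4% and 35.1% in the inputs. CCT2 set most of that spread. It was at 789 and 733 TPM in the polysomes, against 682 and 726 TPM in the inputs, or 1.47 and 1.67 times the mean of the 8, against 1.66 and 1.78 times. Without CCT2, a setting chosen after seeing the data, the highest subunit was 1.46 and 1.47 times the lowest in the polysomes, against 1.71 and 1.53 times in the inputs.

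Below CCT2 the order was loose. In the inputs the mean level was 704 ± 31 TPM for CCT2 (SD, n = 2), 480 ± 36 TPM for CCT4, 392 ± 76 TPM for CCT3, 366 ± 18 TPM for CCT1, 365 ± 20 TPM for CCT5, 345 ± 70 TPM for CCT6, 328 ± 30 TPM for CCT8 and 296 ± 1.4 TPM for CCT7. Only 3 steps of this order held in both inputs with no overlap: CCT2 above CCT4, CCT4 above CCT3, and CCT8 above CCT7. The ranges of the neighbours CCT3, CCT1, CCT5, CCT6 and CCT8 overlapped, each pair in turn. In the polysomes CCT2 averaged 761 ± 40 TPM, CCT4 529 ± 66 TPM, CCT8 482 ± 66 TPM, CCT6 453 ± 178 TPM, CCT5 439 ± 42 TPM, CCT1 431 ± 99 TPM, CCT3 420 ± 52 TPM and CCT7 389 ± 11 TPM. There only CCT2 stood clear of its neighbour, and CCT8 ranked 3, against rank 7 in the inputs.

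Set against the mean of the 8 subunits within each library, a measure that no scaling between libraries can move, the fractions did not overlap for CCT7, CCT8 and CCT4, about as often as over all genes. CCT8 was at 0.984 and 0.991 times the mean in polysome 1 and 3, against 0.847 and 0.754 times in input 1 and 3. CCT7 was at 0.740 and 0.868 times in the polysomes, against 0.716 and 0.729 times in the inputs, and CCT4 at 1.07 and 1.10 times, against 1.23 and 1.12 times. That is 2 of 8 subunits with both polysomes above both inputs, where 16.6% of all genes were above on this measure, and 1 of 8 below, where 17.8% were. With 2 libraries a fraction an exact permutation test of such a ratio cannot reach the threshold, and none was run.

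**Figure D3:**
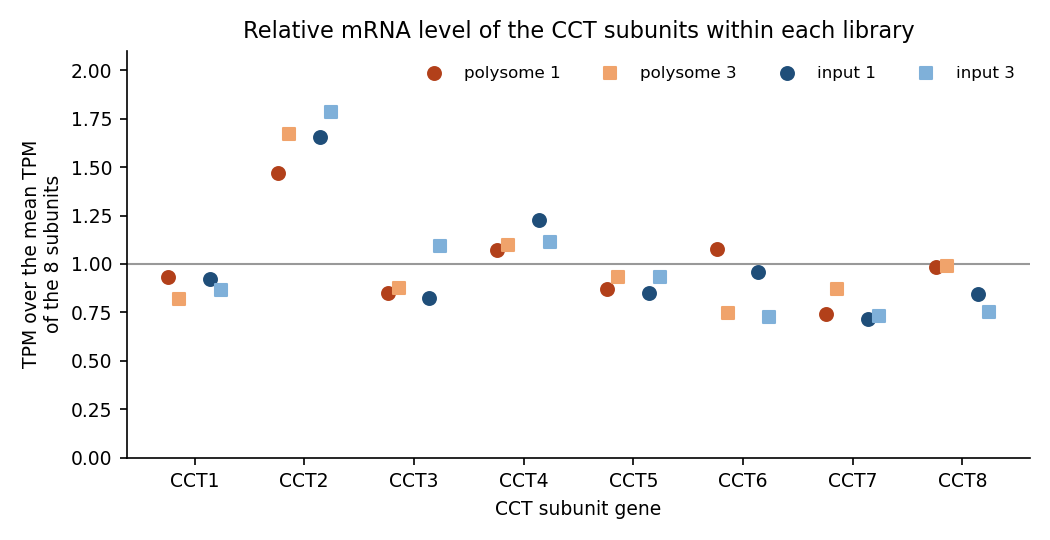
TPM of each CCT mRNA divided by the mean TPM of the 8 subunits in the same library (y axis, from 0; grey line at 1), polysome 1 and 3 left and input 1 and 3 right. CCT2 lies at 1.47 to 1.78 times the mean in all libraries, and CCT8 is near 1 in both polysomes, against 0.754 and 0.847 in the inputs.

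The CCT mRNAs varied less over the 4 libraries than the median gene did, all 8 of them. The range of log2(CPM + 0.5) over the 4 libraries, highest minus lowest, was 0.12 in CCT5, 0.16 in CCT7, 0.18 in CCT2, 0.31 in CCT4, 0.40 in CCT1, 0.42 in CCT3, 0.50 in CCT8 and 0.74 in CCT6. Its median over the 8 was 0.35, beside 1.30 over all genes tested, and beside 0.89 over the 382 genes, members included, whose mean input TPM was at least that of the lowest subunit. CCT5, CCT7 and CCT2 lay in the lowest 1% of all genes by this range, at percentiles 0.18, 0.49 and 0.62, and CCT6 lay at percentile 21.1. Most of these genes are less abundant than CCT. Among the 382 genes at CCT level, members included, 13 had a range under 0.2. The same median was 0.95 for 6 prefoldin subunits, 0.83 for 13 subunits of the 20S proteasome and 0.78 for 7 of the Arp2/3 complex. These are descriptions of 4 libraries, in which abundant mRNAs vary less by counting error.

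**Figure D4:**
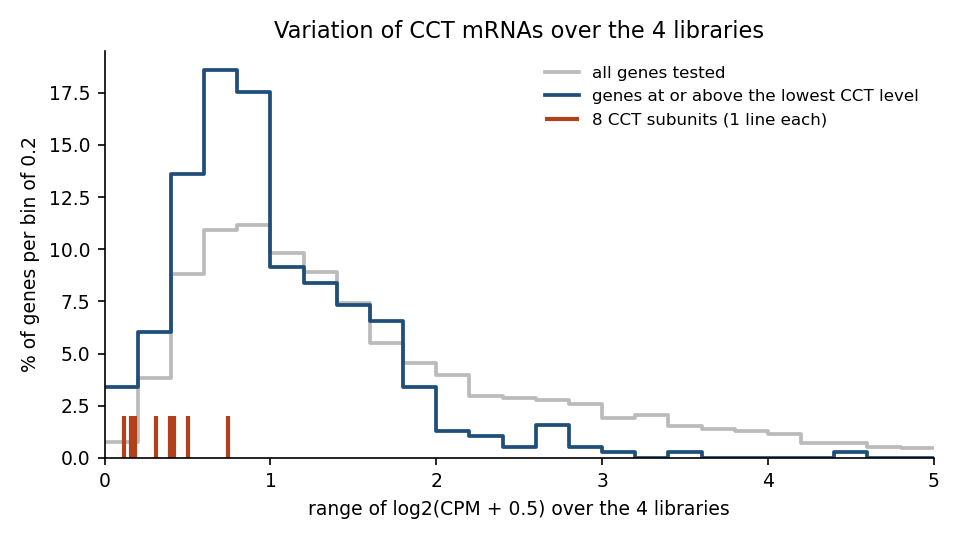
Range of log2(CPM + 0.5) over the 4 libraries (x axis, highest minus lowest) as % of genes per bin of 0.2 (y axis), for all 9038 genes tested (grey) and the 382 genes at or above the lowest CCT level (blue); red lines mark the 8 CCT subunits. The subunits lie between 0.12 and 0.74, left of the medians of 1.30 and 0.89; genes beyond 5 are not drawn.

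The genes nearest to the mean CCT pattern over the 4 libraries were flat by the rule that picked them, since that pattern is itself flat. That mean, as centred log2 CPM, was 0.12 and -0.11 in polysome 1 and 3, against 0.03 and -0.04 in input 1 and 3. By Euclidean distance over the 4 libraries, among the 7000 genes averaging 10 CPM or more, the nearest 5 outside the members were Mlc-c, a myosin light chain (distance 0.033), AMPdeam, an AMP deaminase (0.057), Gnpnat (0.057), Adss, an enzyme of AMP synthesis (0.060), and Vha68-2, a subunit of the vacuolar proton pump (0.063). Mlc-c was at 576 and 502 CPM in the polysomes, against 560 and 523 CPM in the inputs. The members themselves, which are part of that mean, lay between rank 24 (CCT5) and rank 1065 (CCT6) of the 7000. Many other genes were thus nearer to the mean pattern than CCT6, CCT3 (rank 498) or CCT8 (rank 358).

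Prefoldin, which hands unfolded actin and tubulin to CCT, was less abundant than CCT and followed the libraries more. The median over its 6 subunits was 150 and 229 TPM in polysome 1 and 3, against 141 and 113 TPM in input 1 and 3, where the CCT median was 514 and 396 TPM, against 365 and 366 TPM. All 6 prefoldin log2 fold changes were positive and none passed, with a median of 0.51 that was -0.06 without polysome 3 and 0.78 without polysome 1. The smallest p belonged to mgr, at 78.7 and 113 CPM in the polysomes, against 57.5 and 61.9 CPM in the inputs (0.69 ± 0.41). The spread of TPM over its subunits was 15.9% and 45.7% in the polysomes, against 21.5% and 26.3% in the inputs. In 13 tested subunits of the 20S proteasome, the core of the protease that removes misfolded proteins, it was 19.7% and 23.8%, against 28.3% and 31.4%. Of these 13 genes 12 were higher in polysomes (median 0.48, or 0.11 without polysome 3 and 0.75 without polysome 1). Over all genes tested 4499 of 9038 were higher. The smallest p among them belonged to Prosalpha7 (0.97 ± 0.42, or 0.51 without polysome 3), with Prosalpha4 the lower one (-0.07 ± 0.40, or 0.05 without polysome 1). In 7 subunits of Arp2/3, the actin nucleator, the spread was 46.4% and 67.1%, against 21.9% and 36.9%, with 4 higher and 3 lower (median 0.09, or -0.24 without polysome 3 and -0.10 without input 3). The smallest p in each direction belonged to Arpc2 (0.72 ± 0.43, or 0.19 without polysome 3) and Arpc3A (-0.36 ± 0.50, or 0.03 without polysome 1).

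None of the known substrates passed the test either. Of 5 tested actin genes 1 was higher and 4 lower in polysomes, with a median of -0.31 (0.06 without polysome 3 and -1.99 without polysome 1) and a summed level of 16843 and 6472 CPM in polysome 1 and 3, against 13473 and 14003 CPM in input 1 and 3. The smallest p in each direction belonged to Act42A, a cytoplasmic actin (0.07 ± 0.41, or -0.10 without polysome 1), and Act88F, the flight muscle actin (-3.12 ± 1.95), and the actin sum was lowest in polysome 3, where the muscle marker sum was lowest too; their part in these values was not tested. Of 7 tested tubulin genes 6 were higher and 1 lower, with a median of 0.37 (0.57 without input 1). alphaTub67C, a maternal alpha-tubulin, was at 0.284 and 222 CPM in polysome 1 and 3, against 1.46 and 2.76 CPM in input 1 and 3, so that polysome 3 alone was high, and its fold change was 5.71 ± 2.08, or -2.87 without polysome 3. gammaTub23C had the smallest p of the lower side (-0.47 ± 0.56). Among the WD40 proteins 4 of 5 were higher (median 0.16, or -0.06 without polysome 3 and 0.46 without input 1). The smallest p of the higher ones belonged to cort, a Cdc20 protein of female meiosis (0.79 ± 0.99), which was at -0.04 without polysome 3 and 1.35 without polysome 1. Gbeta13F, a G protein beta subunit, was on the lower side (-0.79 ± 0.46, or -0.37 without polysome 1). Of the 6 tubulin cofactors, which take tubulin after CCT, 2 were higher and 4 lower (median -0.07). That median was 0.15 without input 1, 0.05 without polysome 1 and 0.16 with total counts, where the median of all genes was 0.22. Tbcc was at 0.21 ± 0.46, or -0.01 without polysome 3, and Tbcd at -0.33 ± 0.40.

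No gene of the other chaperone systems was called, and their difference from CCT was not tested. Of 14 genes listed for the Hsp70 and Hsp90 system 11 were lower, with a median of -0.44 that was -0.17 without polysome 3 and -0.69 without polysome 1. In 7 of the 14 both polysomes lay below both inputs, as in 18.1% of all genes. Over all genes tested 4539 of 9038 were lower in polysomes. DnaJ-1, a partner of Hsp70, was at 450 and 420 CPM in polysome 1 and 3, against 562 and 913 CPM in input 1 and 3 (-0.76 ± 0.42). Of the 3 higher ones viaf had the smallest p (0.40 ± 0.39, or 0.22 without polysome 1). It encodes a phosducin-like protein, neither an Hsp70 nor an Hsp90, and its place in this list was a choice. All 11 tested heat-inducible genes were lower, with a median of -0.91 (from -1.67 with polysome 1 left out to -0.35 with input 3 left out) and a summed level of 23153 and 9319 CPM in the polysomes, against 29382 and 30252 CPM in the inputs. Hsp70Aa had the smallest p, at 41.0 and 133 CPM in the polysomes, against 111 and 586 CPM in the inputs, and its near-identical copies can split or lose reads. The 2 tested genes of the mitochondrial chaperonin were both lower (median -0.17). That median was 0.39 without polysome 3 and 0.20 without input 1, where the CCT median was 0.08 and 0.005, and 0.06 with total counts. Of these, the smallest p belonged to CG11267, at -0.28 ± 0.40. The CCT sum stayed at 4543 and 3934 CPM in the polysomes, against 4354 and 4209 CPM in the inputs.

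The overlap at the end of CCT5 took unequal shares of its reads. Where strand is ignored, reads that touch both CCT5 and EndoG are set aside as ambiguous, and CCT5 lost 5.72% and 18.7% of its counts in polysome 1 and 3, against 21.0% and 35.9% in input 1 and 3. Its log2 fold change was 0.29 with unstranded counts, against 0.0047 by strand, and its rank among the 8 in the inputs moved from 5 to 8. In 69 genes with a similar 3′ overlap (50 to 150 bases, a rule set after seeing the data), the median loss was 3.40% and 7.10% in polysome 1 and 3, against 7.64% and 12.3% in input 1 and 3. The loss was smallest in polysome 1 and largest in input 3, for CCT5 and in the median of these genes, while polysome 3 and input 1 lay close together. Its part in the fold changes was not tested. CCT7 lost 10.1% and 2.30% in the polysomes, against 1.75% and 1.62% in the inputs, and its unstranded log2 fold change was 0.05, against 0.14 by strand. The other 6 subunits lost at most 3.24% in any library.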

How the data were processed

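Polysome and input libraries were poly(A)-selected, fragmented for 13 min and made with a directional kit. The authors mapped reads to dm6 (dm6.01 in the study's methods) with STAR 2.6.1c and deposited its gene counts, raw whole numbers per gene and strand, not normalized. Column 4, the strand of a dUTP kit, held 95.3% to 97.1% of strand-assigned counts and was used. Reads naming no gene, 42.6% and 33.2% of reads in input 1 and 3 and 10.8% and 33.9% in polysome 1 and 3, stayed out of library sizes. Gene names, lengths and coordinates came from Ensembl release 115 (BDGP6.54, dm6 coordinates), which held 17561 of the identifiers; beside that genome name, a gene annotation release is not given in the sources used here.

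All 4 libraries were fitted across all genes with edgeR 4.0.16 in R 4.3.3 (quasi-likelihood test, TMM factors, filterByExpr, Benjamini-Hochberg adjustment, called under 0.05). Standard errors came from the test statistic, and 95% intervals from it with the fit's total degrees of freedom. TPM used summed exon length. The spread behind each p-value is that between these libraries and may be technical. Equal replicate numbers were not taken as pairs: deviations of same-numbered libraries correlated at r = -0.07 across 9038 genes, though the study sets each polysome library against its corresponding lysate. Alternatives were DESeq2 1.42.0, RLE factors, no filter, unstranded counts, a replicate block, other gene lengths, other pseudocounts, each library left out and, added after seeing the data, total counts.

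The members and lists were chosen with earlier results of these data known. Named genes were the 8 members, the smallest-p tested member of each list in each direction, and the 5 nearest patterns. Of 143 list symbols 2 matched no gene and are not analysed here. Prosalpha1 had 0 counts in every library, whereas the 13 tested subunits of the 20S proteasome had counts in all of them. Gene counts leave out reads that map to several places, and why Prosalpha1 had none was not tested. Promoter motifs and protein sequences were not analysed here.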

Additional observations from a re-analysis of the deposited data

Results flagged for a closer look

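Reads on the strand opposite to a CCT gene, which no comparison above uses, exceeded the limit that a count of 0 allows (3 counts) in 7 cases. For CCT1 there were 59 such reads in polysome 3 (0.605% of its reads on both strands) and 0 in the other libraries. CCT5 had 5 and 27 in polysome 1 and 3, against 83 and 35 in input 1 and 3, or 0.0482% and 0.245%, against 1.73% and 0.664%. CCT3 had 12 and CCT4 13 in input 3 alone. Over all genes the opposite strand held 2.91% and 3.69% in polysome 1 and 3, against 3.59% and 4.74% in input 1 and 3, so each value was below the share over all genes of its library.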

How the results depend on the processing

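No alternative called a CCT subunit. The count of all genes called was 41 by DESeq2, 104 with no filter and 47 with the replicate block, and 0 to 695 with a library left out; RLE factors, unstranded counts and total counts called 0, the same as the 0 reported. The median of the 8 was -0.02 with the replicate block, -0.13 to 0.08 with a library left out and 0.21 with total counts. Signs turned with total counts for CCT1 (0.19), CCT2 (0.079), CCT3 (0.072) and CCT4 (0.098), without polysome 3 for CCT1 (0.13; lowest -0.19 without polysome 1), without input 1 for CCT1 (0.036) and CCT5 (-0.034), without input 3 for CCT3 (0.027; lowest -0.33 without input 1) and CCT6 (-0.089; highest 0.43 without polysome 3), and without polysome 1 for CCT5 (-0.00043; highest 0.044 without polysome 3) and CCT6 (-0.25); in fits with a library left out the lone library was given the spread of the other fraction. CCT2 and CCT4 stayed negative and CCT7 and CCT8 positive in every fit with a library left out. Some of the turned signs did not cross the median of all genes of their fit. CCT1 without input 1 and CCT3 without input 3 stayed below it, and CCT5 without polysome 1 stayed above it. In the other left-out fits with a turned sign the subunit did cross it. CCT5 without input 3 (0.04) fell below that median with no turn of sign. The highest over the lowest subunit was 2.18 and 2.46 in polysome 1 and 3, against 2.54 and 2.69 in input 1 and 3, by coding length, and with unstranded counts 2.21 in polysome 1, against 2.46 and 2.99 in input 1 and 3. The coefficient of variation was 34.2% and 40.3% in input 1 and 3 by coding length and 39.8% in input 3 with unstranded counts. Other pseudocounts left the median efficiency at 0.24. CCT2 and CCT4 ranked first and second in the inputs by every length. Counting error was 0.688% to 1.59% of a CCT value.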
